A study of Mus musculus with 9 samples.

Results

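The genes of oxidative phosphorylation were followed in cells picked as retinal ganglion cells from mice with a crushed optic nerve. They were taken by name, as every gene of the count table whose symbol starts with mt-Nd, mt-Co, mt-Cy, mt-Atp, Nduf, Sdha, Sdhb, Sdhc, Sdhd, Uqcr, Cox4, Cox5, Cox6, Cox7, Cox8 or Atp5. Of the 131 such symbols, 14 that hold -ps or end in os were left out, which gave 117 of the 50764 genes in the table. The mitochondrial genome encodes 13 of them. A further 92 are nuclear genes named as subunits, of which 43 carry complex I names, 4 complex II, 8 complex III, 19 complex IV and 18 complex V names. The remaining 12, the Ndufaf and Sdhaf genes, are nuclear genes for factors that help to assemble complexes I and II. Complexes were assigned by symbol, so that Ndufa4, now known as a subunit of complex IV, is counted with complex I, and Cox7a2l, a factor for joining complexes III and IV, with complex IV. Among the 92, Ndufa11b, Ndufb4c, Ndufs6b and Cox6c2 are annotated as processed pseudogenes, with 20, 3, 0 and 0 counts over all libraries. Atp5o has a further entry with 0 counts. None of these entries had enough counts to be tested.

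Oxidative phosphorylation makes ATP in the inner mitochondrial membrane. Complexes I to IV pass electrons from NADH and succinate to oxygen and, except for complex II, pump protons, and complex V, the ATP synthase, lets the protons flow back to form ATP. Subunits of complexes I, III, IV and V come from both the mitochondrial and the nuclear genome, whereas complex II is wholly nuclear. Retinal ganglion cells, whose long unmyelinated axon segments inside the eye are rich in mitochondria, are known for their sensitivity to defects of complex I, as in Leber hereditary optic neuropathy.

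Poly-A RNA was sequenced from 9 libraries of adult male wild-type mice. An AAV2 virus (1.5 µL, into the vitreous) and a crush of the optic nerve were common to all groups, and 14 days are given for each. The virus carried green fluorescent protein (GFP), Olig2 or Olig3, with 3 libraries in each group. Both Olig2 and Olig3 belong to the basic helix-loop-helix family of transcription factors. Beads against Thy1 (CD90.2) enriched the cells, from which GFP-positive ones were picked, 10 to 20 per library across the different statements of the labels, and their complementary DNA was amplified over 20 cycles. The viral promoter, how GFP marked cells with the Olig viruses, and whether libraries stem from separate animals were not given in the sources used here. All p-values therefore reflect spread from library to library, which can be technical.

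Library totals ran from 5355691 to 6979851 counts, and a count of 0 allows up to 3 counts, or 0.430 to 0.560 CPM, the unit for counts scaled by library size. Without molecular identifiers such limits cover counting error only. The defining markers went against a pure ganglion cell pick: 16 rod genes summed to 51167 to 166235 CPM in the 9 libraries and 16 ganglion cell genes to 225 to 2293 CPM. The rod sum was 51167 to 74898 CPM in the GFP group, 86998 to 161348 with Olig2 and 66996 to 166235 with Olig3, and the ganglion cell sum was 1008 to 2293, 259 to 497 and 225 to 373 CPM. No gene of either list was at 0 in all libraries. Markers of other cells moved with the groups as well: 8 B and plasma cell genes summed to 2239 to 8734 CPM with Olig2 and 17.8 to 87.5 with GFP, 11 cone genes to 5056 to 8780 with Olig3 and 1032 to 2063 with GFP, and 12 lens genes to 299 to 4512 with GFP and 32.4 to 41.0 with Olig2. Olig2 libraries 2 and 3 and Olig3 library 2 stood apart by the nuclear RNA Malat1, which held 11.7, 6.15 and 8.54% of their counts and 2.65 to 4.14% elsewhere, and are called the Malat1-rich libraries. Olig3 libraries 1 and 3 had 16188 and 14434 detected genes, against 18184 to 21338 in the other 7. Fewer cells of a type and less RNA per cell cannot be told apart in such pools, and the part of the marker differences in the values that follow was not tested.

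The 13 mitochondrially encoded genes differed first in how much of their sequence is unique. Their coding sequences were cut into all windows of 50 bases, and each window was looked up in the transcripts of every other gene of GENCODE release M21. Nuclear copies annotated as separate genes held 98.0 to 100% of the windows of mt-Nd3, mt-Nd4l, mt-Co2, mt-Co3 and mt-Atp6. Pairs of the first 120 bases are shown to make this visible, with the position that differs in capitals, and with mt-Cytb, the apocytochrome b of complex III, as a gene for which no window was shared (sequences of GENCODE M21 transcripts, 5′ to 3′).
mt-Nd3: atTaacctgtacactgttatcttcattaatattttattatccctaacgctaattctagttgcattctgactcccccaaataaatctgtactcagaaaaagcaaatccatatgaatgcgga
Gm28438: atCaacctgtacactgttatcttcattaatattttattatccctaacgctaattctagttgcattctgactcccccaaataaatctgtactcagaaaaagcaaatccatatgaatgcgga
mt-Co3: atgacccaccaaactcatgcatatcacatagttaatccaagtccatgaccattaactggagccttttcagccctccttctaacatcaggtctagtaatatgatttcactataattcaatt
Gm28437: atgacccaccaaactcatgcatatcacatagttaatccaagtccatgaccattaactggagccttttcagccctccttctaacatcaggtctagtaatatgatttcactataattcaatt
mt-Cytb: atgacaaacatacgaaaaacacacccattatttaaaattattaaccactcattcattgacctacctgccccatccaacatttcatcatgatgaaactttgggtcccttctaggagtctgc
The copy Gm28438 differed from mt-Nd3 at 1 of 345 aligned bases. Gm28437 matched mt-Co3 at all 783 aligned bases, and Gm28661, Gm10925 and Gm10222 matched mt-Co2, mt-Atp6 and mt-Nd4l at all 681, 678 and 294. mt-Nd4 and mt-Co1 were shared in part, with 62.2 and 51.1% of their windows.

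The genes with near-complete copies had few counts, and of the others only mt-Atp8 did. Partial sharing did not go with few counts in mt-Nd4 and mt-Co1. The 7 genes mt-Cytb, mt-Co1, mt-Nd4, mt-Nd2, mt-Nd5, mt-Nd1 and mt-Nd6 had 415791, 307051, 131454, 122901, 117672, 87182 and 40320 counts over all libraries and held 99.2 to 99.8% of the mitochondrially encoded counts in each library. mt-Co3, mt-Atp6 and mt-Co2 had 2233, 1707 and 707 counts, and mt-Nd3 and mt-Nd4l only 16 and 9. Few counts were thus left for mt-Co2 and mt-Co3, which form the core of complex IV with mt-Co1, and for mt-Atp6, the proton channel subunit of complex V. mt-Atp8 had 1 count although no window of it was shared with an annotated transcript, and the genome sequence itself was not used here. On the mitochondrial genome, at bases 7766 to 7969, it follows mt-Co2 and overlaps mt-Atp6 with 21.1% of its exon bases. The part of this position in its count was not tested. The copies also took counts: Gm28437, identical to mt-Co3, had 2763, 2119 and 2414 counts in the Malat1-rich libraries and 245 to 754 in the others, and Gm10925, identical to mt-Atp6, had 969, 1146 and 591 against 47 to 494. How reads with several matching places were counted was not given in the sources used here, so levels of the genes with copies are uncertain, and the complex V and complex IV values of the mitochondrial genome rest on them.

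**Figure D1:**
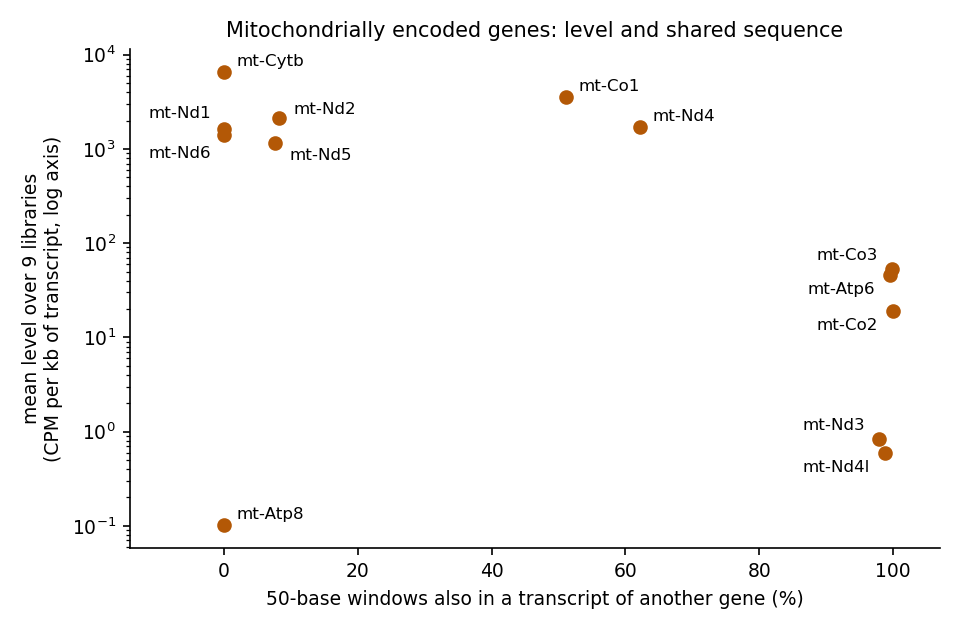
Mean level of the 13 mitochondrially encoded genes over 9 libraries, in CPM per kilobase of transcript on a log axis, against the percentage of their 50-base windows that also occur in a transcript of another gene; each point is 1 gene. The 5 genes with 98.0% or more shared windows lie at 0.592 to 53.5 CPM per kb and the 7 well-counted genes at 1151 to 6573, while mt-Atp8 is low with no shared window.

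Per length of transcript, the 7 well-counted mitochondrially encoded genes had the highest levels of all oxidative phosphorylation genes, and the 6 others lay below many nuclear subunits. On the scale of mean CPM per kilobase of the transcript with the longest coding sequence, mt-Cytb lay at 6573, mt-Co1 at 3554, mt-Nd2 at 2126, mt-Nd4 at 1713, mt-Nd1 at 1644, mt-Nd6 at 1395 and mt-Nd5 at 1151. Atp5b, the catalytic beta subunit of the ATP synthase, followed as the highest nuclear gene at 903 CPM per kb. By summed counts the highest nuclear subunit of each complex was Ndufa4 for complex I by symbol, Sdha for complex II, Uqcrc1 for complex III, Cox4i1 for complex IV and Atp5b for complex V. Ndufa4 had 361 CPM per kb, Sdha, the flavoprotein of succinate dehydrogenase, 134, Uqcrc1, a core subunit of complex III, 274, and Cox4i1, the common form of subunit 4, 512. Levels of different genes also depend on how a poly-A primed, amplified library covers a transcript.

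The mitochondrially encoded genes together held a larger share of counts in every Olig2 library than in any GFP library, while the Olig3 libraries spanned the GFP range. Their shares were 2.14, 2.14 and 1.63% in GFP libraries 1 to 3, 2.31, 2.25 and 2.90% with Olig2, and 2.51, 2.49 and 1.48% with Olig3. The 92 nuclear subunits held 1.19, 1.17 and 1.15% in the GFP libraries, 1.15, 1.05 and 1.19% with Olig2, and 1.11, 1.08 and 1.12% with Olig3. The nuclear share had group means of 1.17% ± 0.0224, 1.13% ± 0.0751 and 1.10% ± 0.0179 (SD, n = 3 each). All Olig3 libraries lay below all GFP libraries in it, which also enters the Olig3 ratio, while Olig2 overlapped the GFP group. The ratio of mitochondrially encoded to nuclear subunit counts, which no scaling factor touches, was 1.80, 1.84 and 1.42 in the GFP libraries, 2.00, 2.15 and 2.43 with Olig2, and 2.27, 2.30 and 1.32 with Olig3. All Olig2 libraries lay above all GFP libraries, and the Olig3 group overlapped the GFP group through library 3. The ratio of geometric means was 0.39 on the log2 scale for Olig2 over GFP and 0.19 for Olig3 over GFP. No p is given for sums over these genes, since they were chosen with results of these data known. Taken instead as the difference of the median log2 CPM of each class, the Olig2 value turned to -0.14, and the cause was not tested.

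**Figure D2:**
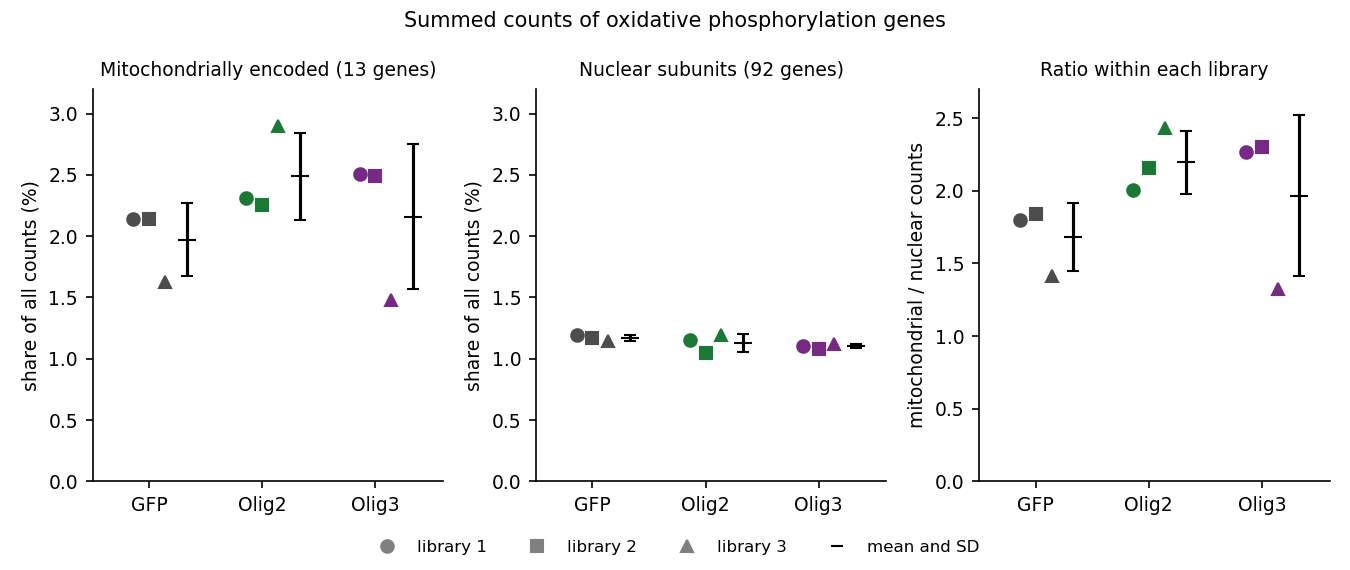
Share of all counts held by the 13 mitochondrially encoded genes (left) and the 92 nuclear subunits (centre), in percent, and the ratio of both sums (right), for each library (points) with the group mean and SD (bars). Nuclear shares stay between 1.05 and 1.19%, and the Olig2 ratios (2.00 to 2.43) lie above the GFP ratios (1.42 to 1.84).

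Complexes did not share 1 ratio. Complex I had ratios of 2.41, 2.51 and 2.09 in the GFP libraries, 2.75, 2.31 and 2.95 with Olig2, and 3.35, 2.66 and 2.18 with Olig3, so all groups overlapped. In complex III, whose only mitochondrial subunit is mt-Cytb, the ratios were 5.23, 5.58 and 3.76 with GFP, 5.91, 10.6 and 10.8 with Olig2, and 6.24, 11.1 and 3.27 with Olig3. The 3 values above 10 belonged to the Malat1-rich libraries. In complex IV the ratios were 4.89, 5.29 and 3.37, then 5.38, 3.27 and 4.29, then 5.25, 3.63 and 2.48, and all groups overlapped. Complex V had 0.00220 to 0.0179, since mt-Atp6 and mt-Atp8 were hardly counted.

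Among nuclear subunits, complex II, which has no mitochondrial gene, held 0.0934, 0.106 and 0.0974% of counts in the GFP libraries, 0.0942, 0.0590 and 0.0644% with Olig2, and 0.0952, 0.0574 and 0.0702% with Olig3. Its 3 lowest shares, 0.0574 to 0.0644%, belonged to the Malat1-rich libraries. Complex IV ran the other way, with 0.148, 0.159 and 0.153% in those libraries against 0.112 to 0.130% in the other 6. Complex III subunits held 0.124, 0.125 and 0.124% in the GFP libraries, 0.117, 0.0909 and 0.105% with Olig2, and 0.119, 0.0925 and 0.120% with Olig3, so that all 6 libraries with an Olig factor lay below all GFP libraries, which also enters the complex III ratio. Complex V subunits held 0.489, 0.489 and 0.452% with GFP, 0.473, 0.403 and 0.498% with Olig2, and 0.430, 0.441 and 0.447% with Olig3, and here the Olig3 libraries lay below all GFP libraries while Olig2 overlapped them. Complex I subunits held 0.329 to 0.366% over all libraries, with overlapping groups.

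Olig2 was compared with GFP gene by gene. Of the 117 genes, 101 passed the filter on low counts (10 mitochondrially encoded, 79 nuclear subunits and 12 assembly factors), and the other 16 had too few counts to be tested. None passed a Benjamini-Hochberg adjusted p of 0.05 in edgeR's quasi-likelihood test, where 0.0513% of the 15609 genes tested passed (8 genes), and the smallest adjusted p was 0.664. DESeq2 and limma-voom called none either. At an unadjusted p under 0.05, 19 of the 101 were higher with Olig2 (18.8%, against 2.61% of all genes) and 0 were lower (against 2.08%). They were 5 of 10 mitochondrially encoded genes, 14 of 79 nuclear subunits and 0 of 12 assembly factors. The 3 libraries of a group did not overlap, with Olig2 higher, for 21 genes (20.8%, against 8.47% of all genes) and with Olig2 lower for 1, the assembly factor Ndufaf6 (against 8.35%). The count at that p moved with the libraries used: without the Malat1-rich libraries, which leaves 1 Olig2 library, it was 0 in either direction. It was 12, 8 and 5 higher without GFP library 1, 3 or 2, 5 without Olig2 library 2 or 3, and 37 without Olig2 library 1. With library totals in place of TMM factors (below), 2 were higher and 4 lower. Shares of all genes at that p are not given for these runs, so the counts have nothing to be read against.

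Levels in this and the following comparisons are CPM scaled by edgeR's trimmed mean of M values (TMM), over the tested genes. mt-Nd6, the only one of the 13 genes on the minus strand of the mitochondrial genome, was at 511, 511 and 437 in the GFP libraries and at 752, 859 and 1051 with Olig2. All Olig2 values lay above all GFP values (log2 change 0.87, SE 0.27, edgeR adjusted p = 0.665). With no stated strand setting, reads from the plus strand of the same stretch cannot be told apart from those of mt-Nd6, here and in the comparisons below. mt-Cytb was at 5669, 6171 and 3940.2 with GFP and 6346, 12489 and 13736 with Olig2 (log2 change 1.05, SE 0.47). Olig2 library 1 stood just above the highest GFP library, and the Malat1-rich pair far above it. mt-Nd4, of the proton-pumping arm of complex I, was at 2031, 1875 and 1506 with GFP and 2382, 2885 and 3981 with Olig2. For mt-Co1, the catalytic core of complex IV, the values were 5556, 5477 and 3640.3 with GFP and 6106, 6145 and 8194 with Olig2. The groups did not overlap for either gene, and the unadjusted p was under 0.05 only for mt-Nd4. mt-Co3 and mt-Atp6, both with near-complete nuclear copies, had log2 changes of 1.92 and 1.85, and their high values lay in the Malat1-rich libraries alone: mt-Co3 was at 22.4, 15.6 and 12.7 with GFP and 22.8, 91.6 and 78.0 with Olig2. mt-Nd1, mt-Nd2, mt-Nd5 and mt-Co2 had p of 0.05 or more, with log2 changes of 0.44, 0.62, 0.49 and 1.43.

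Ndufs7, an iron-sulfur subunit of complex I that hands electrons towards ubiquinone, had the smallest p of the nuclear genes. Its GFP libraries lay close together at 132, 132 and 129 TMM-scaled CPM, and the Olig2 libraries at 188, 261 and 227. The groups did not overlap (log2 change 0.79, SE 0.24, edgeR adjusted p = 0.664). Cox6c, a small subunit of complex IV, was at 85.9, 67.3 and 74.4 with GFP and 97.6, 173 and 169 with Olig2 (log2 change 0.95, SE 0.29). Atp5mpl, a small membrane subunit of the ATP synthase, was at 19.0 to 26.9 with GFP and 42.9, 94.7 and 62.1 with Olig2 (log2 change 1.57, SE 0.52). In both genes Olig2 library 1 was the lowest of the 3 and still above the GFP libraries. Ndufs8, another iron-sulfur subunit of complex I, was at 73.0, 84.2 and 71.6 with GFP and 106, 134 and 131 with Olig2. Atp5h, of the peripheral stalk of the ATP synthase, was at 139, 110.4 and 108 with GFP and 142, 244 and 233 with Olig2. For Atp5h the lowest Olig2 library was barely above the highest GFP library. In CPM without TMM factors, mt-Nd6, Ndufs7, Ndufs8, Cox6c and Atp5mpl still did not overlap between Olig2 and GFP, whereas mt-Cytb, mt-Nd4, mt-Co1 and Atp5h did.

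By complex, the nuclear genes with p under 0.05 were 8 of 38 tested in complex I, 0 of 4 in complex II, 0 of 8 in complex III, 3 of 12 in complex IV and 3 of 17 in complex V. As medians of the difference in mean log2 CPM, the mitochondrially encoded genes had 0.80 (10 of 10 above 0) and the nuclear subunits 0.56 (71 of 79 above 0), where all genes tested had 0.06. With library totals in place of TMM factors these became 0.42, 0.18 and -0.31, so that the distance from the median of all genes hardly moved (0.75 and 0.73 for the mitochondrially encoded genes, 0.50 and 0.49 for the nuclear subunits). Without the Malat1-rich libraries the medians were 0.35 and 0.03. Complex II stood lower, with a median of -0.05 and 1 of 4 genes above 0, where complexes I, III, IV and V had 0.60, 0.59, 0.57 and 0.41. The nuclear genes' higher TMM-scaled medians went with a summed share of counts that was not higher, as given above.

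**Figure D3:**
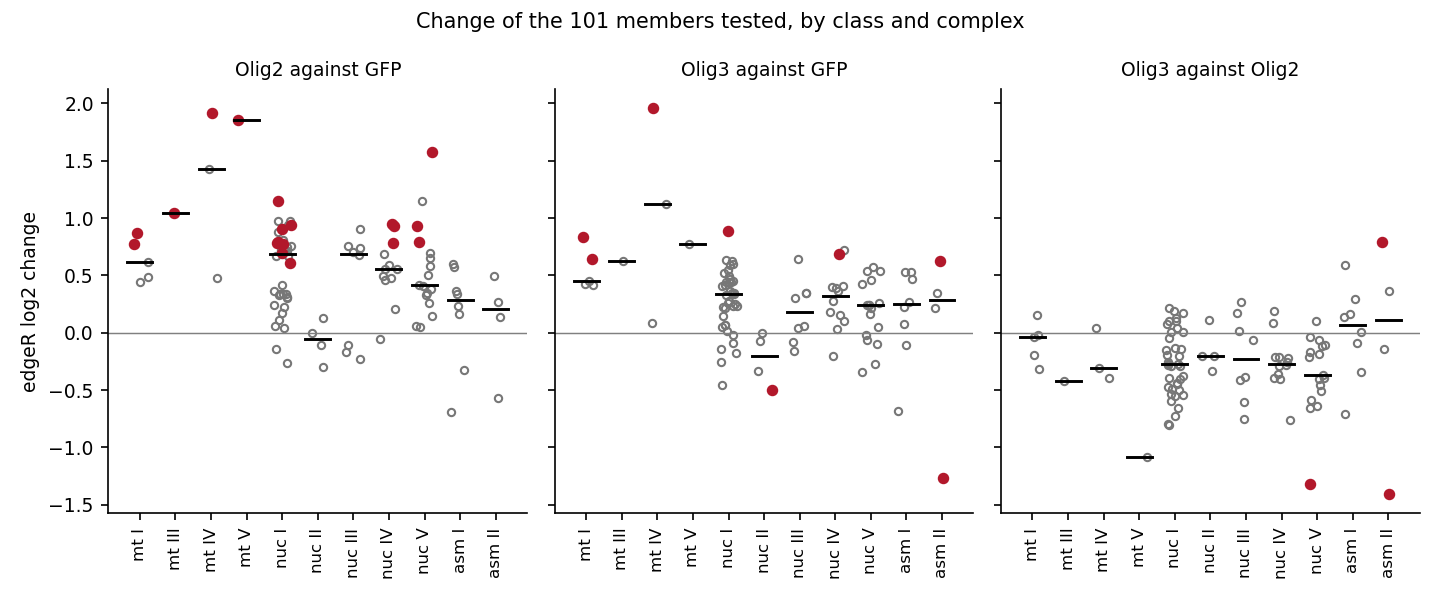
edgeR log2 changes of the 101 genes tested in 3 comparisons, by class (mt, mitochondrially encoded; nuc, nuclear subunits; asm, assembly factors) and complex; filled red points have an unadjusted p under 0.05 and black lines are medians. With TMM factors most points of Olig2 against GFP lie above 0 except in nuclear complex II, and 19, 8 and 3 points are filled in the 3 panels.

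Olig3 was compared with the same GFP libraries, so that both comparisons share their controls. None of the 101 genes passed the adjusted threshold in edgeR, where 0.205% of all genes did (32 genes), and limma-voom called none. At an unadjusted p under 0.05, 6 were higher (5.94%, against 5.76% of all genes) and 2 lower (1.98%, against 6.37%). Groups did not overlap for 10 higher genes (9.9%, against 7.18%) and 2 lower ones (1.98%, against 10%). With all 9 libraries the share of higher genes was near that of all genes. The counts at that p moved when single libraries were left out. Without Olig3 library 3, 18 of 103 were higher and 0 lower, and without Olig3 library 2, 3 were higher and 4 lower. Without GFP library 3, 3 were higher and 0 lower. Shares of all genes at that p are not given for these runs, so these counts have nothing to be read against. At the adjusted threshold the runs without Olig3 library 3 or 2 called 2 of 16884 and 505 of 16926 genes.

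Ndufs7 again had the smallest p, with 263, 289 and 173 TMM-scaled CPM in the Olig3 libraries above 129 to 132 with GFP (log2 change 0.89, SE 0.24, edgeR adjusted p = 0.183). DESeq2 called it, with an adjusted p of 0.0187, in a run that called 625 of 29057 genes. mt-Nd6 was at 1067, 989 and 542 with Olig3, the last just above the GFP maximum of 511 (log2 change 0.83, SE 0.27, adjusted p = 0.268). mt-Nd5, of the membrane arm of complex I, was at 1653, 1744 and 1390.5 with GFP and 3255, 2307 and 1904 with Olig3, with no overlap (log2 change 0.64, SE 0.26). mt-Cytb was at 7079, 13811 and 3406 with Olig3 and overlapped the GFP group. mt-Co3 was at 23.7, 165 and 9.68, and its log2 change of 1.96 rested on Olig3 library 2: without that library it was -0.016. Among nuclear genes Cox6c was at 103, 164 and 99.9, above all GFP values (log2 change 0.69, SE 0.29).

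Genes of complex II and its assembly were on both sides of GFP. Sdhb, the iron-sulfur subunit of succinate dehydrogenase, was at 208, 174 and 208 TMM-scaled CPM with GFP and at 131, 156 and 129 with Olig3 (log2 change -0.50, SE 0.21, edgeR adjusted p = 0.375). The Olig2 libraries, at 142, 196 and 142, overlapped the GFP group on this scale. In CPM without TMM factors they did not, at 155, 151 and 116 with Olig2 against 237, 196 and 246 with GFP (log2 change -0.68 with library totals, edgeR adjusted p = 0.643). Sdhaf3, which helps to mature that iron-sulfur subunit, was at 24.4, 23.5 and 29.9 with GFP and 7.82, 18.5 and 6.16 with Olig3 (log2 change -1.27, SE 0.54). Its 2 lowest values were in Olig3 libraries 1 and 3, which had the fewest detected genes. In CPM without TMM factors Sdhb and Sdhaf3 still did not overlap with GFP, nor did mt-Nd6 and Ndufs7, whereas mt-Nd5 did. Sdhaf1, with a related role, was at 42.1, 67.5 and 77.9 with GFP and 108, 94.3 and 88.0 with Olig3 (log2 change 0.63, SE 0.27). Its groups overlapped in CPM without TMM factors. The gene E130208F15Rik overlaps 69.6% of the exon bases of Sdhaf1, and with no stated strand setting their reads cannot be told apart. The other subunits of complex II, Sdha, Sdhc and Sdhd, had log2 changes of -0.0016, -0.07 and -0.34.

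As medians, the mitochondrially encoded genes had 0.41 with Olig3 (9 of 10 above 0) and the nuclear subunits 0.17 (57 of 79 above 0), beside -0.18 for all genes, and the nuclear value turned to -0.08 with library totals, where all genes had -0.42. The nuclear median also turned without Olig3 library 2 (-0.07), and the mitochondrially encoded one fell to 0.01. Without Olig3 libraries 1 and 3, the least complex ones, the medians were 1.04 and 0.72, with 1 Olig3 library left.

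Between the factors, Olig3 against Olig2, no gene of the 101 passed the adjusted threshold in edgeR, DESeq2 or limma-voom, where edgeR called 0.0384% of all genes (6 genes). At an unadjusted p under 0.05, 1 was higher with Olig3 (0.99%, against 2.07% of all genes) and 2 lower (1.98%, against 3.05%). Without Olig3 library 2, 26 of 103 were lower and 2 higher (smallest edgeR adjusted p = 0.0542). In that run 160 of 16926 genes passed the adjusted threshold. Without Olig2 library 1, 6 were lower, and without Olig3 library 3, 0 were lower. Without Olig2 library 2 or 3, or Olig3 library 1, 1 was lower. Shares of all genes at the unadjusted p are not given for these runs. Groups did not overlap for 3 higher and 3 lower genes (2.97% each, against 4.41 and 8.69%). Sdhaf2, which attaches the flavin of complex II, was at 46.2, 53.4 and 46.5 TMM-scaled CPM with Olig2 and 88.3, 64.0 and 99.5 with Olig3 (log2 change 0.79, SE 0.27, edgeR adjusted p = 0.918). The GFP libraries, at 82.3, 81.6 and 53.2, spanned most of that range. Sdhaf3 was lower with Olig3 (log2 change -1.40, SE 0.54), with Olig2 at 39.5, 18.8 and 27.1. Atp5mpl was also lower with Olig3, at 13.6, 51.3 and 15.7 (log2 change -1.32, SE 0.52), but its Malat1-rich library overlapped the Olig2 range.

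**Figure D4:**
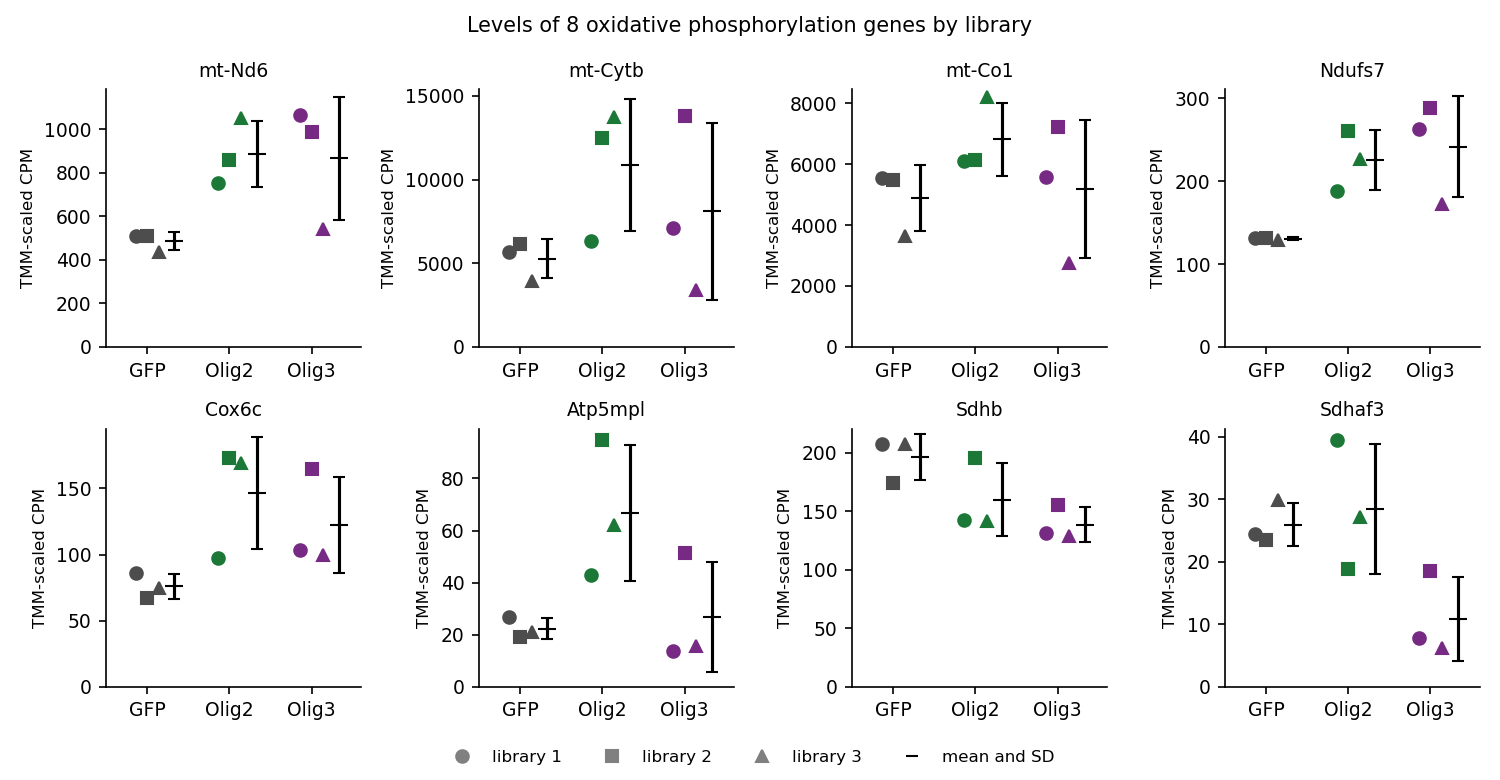
TMM-scaled CPM of 8 oxidative phosphorylation genes in each library (points; shapes mark library numbers) with the group mean and SD (bars); every axis starts at 0. Ndufs7 and Cox6c are above GFP in all 6 libraries with an Olig factor, Sdhb is below GFP in the 3 Olig3 libraries, and the highest mt-Cytb values are in the Malat1-rich libraries (Olig2 2 and 3, Olig3 2).

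Among the nuclear subunits, the 3 Malat1-rich libraries stood apart from all others, and did so by coding length. Their median deviations from the GFP mean were 0.79, 0.74 and 0.69 on the log2 scale, whereas the other 3 Olig libraries (0.02, 0.03 and -0.15) lay within the GFP range of -0.16 to 0.09. Of the 79 tested, 78 had a coding length in GENCODE M21, and they were divided into 39 with 156 to 423 coding bases and 39 with 429 to 2181. In the 3 Malat1-rich libraries the shorter genes had median deviations from the GFP mean of 1.01, 0.97 and 0.86 on the log2 scale, and the longer ones 0.42, 0.40 and 0.37. In the other 3 Olig libraries (Olig2 1, Olig3 1 and Olig3 3) the shorter genes had -0.05, -0.08 and -0.24, and the longer ones 0.06, 0.09 and -0.06. Across the 78 genes, Spearman's rho between coding length and deviation was -0.61, -0.65 and -0.56 in the Malat1-rich libraries and 0.17 to 0.22 in the other 3. These are descriptions across genes, which are not independent replicates and share their library. No such division was made over all genes tested, so whether the pattern is particular to these subunits was not tested. The GFP libraries differed among themselves as well, with rho of -0.43, 0.64 and -0.43, where deviations are taken from their own mean. In shares of counts, which TMM does not touch, the shorter genes held 0.315, 0.330 and 0.302% in the Malat1-rich libraries and 0.209 to 0.270% in the other 6. The longer genes held 0.729, 0.859 and 0.778% there and 0.875 to 0.956% elsewhere, so that short and long subunits moved in opposite directions without any scaling. TMM factors of these libraries were 0.776, 0.826 and 0.749, against 1.06 to 1.19 in the others, and their part in the higher scaled levels, like that of RNA quality, was not tested.

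**Figure D5:**
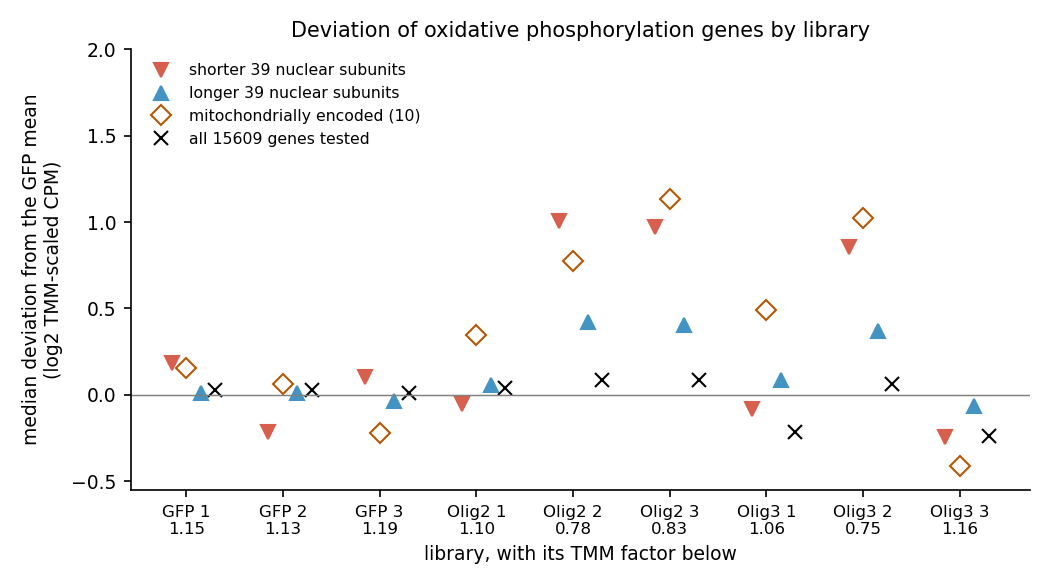
Median deviation from the GFP mean, in log2 TMM-scaled CPM, of the 39 shorter and 39 longer nuclear subunits, the 10 mitochondrially encoded genes tested and all 15609 genes, in each library; TMM factors are printed under the library names. In Olig2 2, Olig2 3 and Olig3 2 the shorter subunits (0.86 to 1.01) lie above the longer ones (0.37 to 0.42), and in the other Olig libraries they do not.

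Subunits with tissue-restricted forms were read mostly in their common form. On the scale of mean CPM per kb, Cox4i1 had 512 and Cox4i2, the form known for regulation by oxygen, 12.4. Cox6a1 had 77.1 and the heart and muscle form Cox6a2 0.82, Cox6b1 108 and the testis form Cox6b2 3.15, and Cox7a2 63.3 and the muscle form Cox7a1 1.60. Cox8a had 261, whereas the muscle form Cox8b and the testis form Cox8c had no count in any library, which allows up to 0.560 CPM in the shallowest. Ndufa4 had 361 and Ndufa4l2, a form known to rise under hypoxia, 0.40. Cox7b had 29.5 and Cox7b2 0.30. The 3 genes for the same ring subunit of the ATP synthase were all expressed, with Atp5g3 at 299.9, Atp5g1 at 208 and Atp5g2 at 122 CPM per kb. None of the restricted forms except Cox4i2 had enough counts to be tested, and Cox4i2 had log2 changes of -0.05 with Olig2 and 0.03 with Olig3 against GFP.

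Promoters of nuclear subunits were searched for 4 short motifs known from respiratory genes, and 3 promoters with a match are printed because Ndufs7 had the smallest p against GFP in both comparisons, Sdhb was lower with Olig3 and Uqcrc1 was the most abundant nuclear gene of complex III. The windows run from 250 bases before to 50 after the RefSeq start on GRCm38.p6 and all lie on the plus strand, chr10:80249199-80249498 for Ndufs7, chr4:140961021-140961320 for Sdhb and chr9:108936398-108936697 for Uqcrc1. Capitals mark the motif found: AAGATGGC (YY1) in Ndufs7, CCGGAAG (ETS factors such as GABP) in Sdhb and CGCATGCGC (a core of the NRF1 site) in Uqcrc1, where it matches on both strands with overlap.
Ndufs7: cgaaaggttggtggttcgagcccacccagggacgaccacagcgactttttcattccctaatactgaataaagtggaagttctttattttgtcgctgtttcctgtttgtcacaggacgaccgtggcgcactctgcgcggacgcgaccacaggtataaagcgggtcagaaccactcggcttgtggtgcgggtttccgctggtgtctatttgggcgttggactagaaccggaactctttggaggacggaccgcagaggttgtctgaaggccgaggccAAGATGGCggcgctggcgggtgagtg
Sdhb: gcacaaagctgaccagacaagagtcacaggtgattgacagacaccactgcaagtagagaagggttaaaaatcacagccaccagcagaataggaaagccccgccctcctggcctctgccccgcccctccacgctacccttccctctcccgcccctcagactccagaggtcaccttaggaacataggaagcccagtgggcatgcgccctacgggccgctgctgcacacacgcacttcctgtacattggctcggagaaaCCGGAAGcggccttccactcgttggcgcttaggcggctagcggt
Uqcrc1: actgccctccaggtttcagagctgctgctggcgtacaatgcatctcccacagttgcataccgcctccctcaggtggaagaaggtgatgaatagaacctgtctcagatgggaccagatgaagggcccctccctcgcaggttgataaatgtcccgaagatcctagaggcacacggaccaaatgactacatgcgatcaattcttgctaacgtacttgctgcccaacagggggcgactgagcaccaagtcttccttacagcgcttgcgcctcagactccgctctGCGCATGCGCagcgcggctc
Windows were found for 70 of the 92 nuclear subunit genes, 75 windows in all. On either strand, the NRF1 core was in 8 of them (10.7%, against 1.75% of 32851 windows of all genes), the ETS motif in 17 (22.7%, against 8.86%), the YY1 motif in 10 (13.3%, against 2.75%) and TCAAGGTCA, read by estrogen-related receptors, in 2 (2.67%, against 0.423%). Most windows thus lacked any given motif, and the window of Atp5b, the most abundant nuclear subunit, held none of the 4. A match is a description of the letters and no evidence that a factor binds.

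Other genes of the pathway were counted in lists drawn up for this description. In the list for complex IV assembly, 3 of 23 tested genes were higher with Olig2 and 2 with Olig3 at an unadjusted p under 0.05, and 1, Pet100, passed the adjusted threshold in both. Over all genes tested, 2.61% were higher with Olig2 and 5.76% with Olig3 at that p, and the counts of this and the following lists are to be read against those shares. Pet100 was at 61.7, 78.4 and 69.8 TMM-scaled CPM with GFP, 309, 312 and 217 with Olig2 and 187, 256 and 154 with Olig3 (log2 change 2.00 and 1.51, adjusted p = 0.0171 and 0.0372, edgeR). The bipolar cell gene Pcp2 lies within its gene model, so that the value of Pet100 may hold reads of Pcp2. Pcp2 had nearly the same levels, at 64.0, 79.6 and 69.8 with GFP, 300, 302 and 224 with Olig2 and 205, 210 and 173 with Olig3. The Pet100 values can therefore not be read as a change of complex IV assembly, and the part of Pcp2 reads in them was not tested. Cox20, a chaperone for subunit COX2, was at 64.6, 54.8 and 77.1 with GFP, 109, 133 and 109 with Olig2 and 179, 117 and 191 with Olig3, with no overlap with GFP (log2 change 0.83 and 1.31, adjusted p = 0.664 and 0.0724). Of 17 regulators of nuclear respiratory genes, 2 were higher with Olig2, and 3 were higher and 1 lower with Olig3 at an unadjusted p under 0.05. Ppargc1b, a coactivator of mitochondrial biogenesis, was at 15.7, 13.1 and 14.9 with GFP, 30.0, 28.4 and 24.4 with Olig2 and 30.4, 29.5 and 50.9 with Olig3 (log2 change 0.92 and 1.34, adjusted p = 1.00 and 0.237). Esrrb, a nuclear receptor also expressed in rods, had log2 changes of 0.74 and 1.07.

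The other lists had 0 to 2 genes past an unadjusted p of 0.05 in each comparison against GFP, in lists too small for such counts to be set firmly apart from the shares of all genes. Of 24 genes for expression of mitochondrial DNA, 0 were past it with Olig2 and 2 were higher with Olig3, among them Polg2, the accessory subunit of the mitochondrial DNA polymerase, at 30.7, 48.1 and 49.1 with GFP and 85.1, 79.5 and 72.9 with Olig3. Of 18 citric acid cycle genes, 0 were past it with Olig2 and 2 were higher with Olig3, Suclg1 with a log2 change of 0.61 and Idh3b with 0.45. Of 12 membrane carriers, 2 were higher with Olig2 and 1 with Olig3. Slc25a5, which exchanges ADP for ATP, had a log2 change of 0.60 with Olig2 and 0.61 with Olig3. Of 10 assembly factors of complexes III and V, 1 was higher with Olig2 and 2 with Olig3, and Uqcc3 was among them in both (log2 change 0.85 and 0.82). The 9 complex I assembly factors with other names, the 2 mitochondrial ribosomal RNAs and the 2 tested cytochrome genes, Cycs and Cyc1, had 0 past that p. None of these genes passed the adjusted threshold in edgeR.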

How the data were processed

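RNA was measured in 9 libraries, 3 each of GFP, Olig2 and Olig3, and the table as deposited holds raw counts, whole numbers per gene. Per the submitters' processing notes, the tools were FastQC, HISAT2 and HTSeq, and the build mm10. Versions, filters, strand and the treatment of reads with several places were not given in the sources used here. All 117 symbols matched GENCODE release M21 of mm10.

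Each comparison came from 1 edgeR 4.0.16 quasi-likelihood fit (R 4.3.3) of group means over all 9 libraries, after filterByExpr (15609 genes) with TMM factors. Benjamini-Hochberg adjustment ran over all tested genes at 0.05. The steps were tested on simulated data with changes larger than those reported here and the same dispersion for all genes. That run does not show how well changes of the reported size are found. Class medians used differences between group means of log2 CPM (prior count 2) and have no test. edgeR's log2 change of a single gene is a different measure. Deviations of libraries were taken on the same scale. Alternatives were other scaling factors, filters and prior counts, DESeq2 1.42.0, limma-voom (limma 3.58.1), the replicate number as a block, fits of the pair alone, other forms of the ratio and leaving out each library. Leaving out the 3 Malat1-rich libraries (1 Olig2 library left) or the 2 with the fewest detected genes (1 Olig3 library left) was chosen after seeing the data, on the assumption that the spread of the remaining groups holds for a lone library.

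The genes and lists were chosen with earlier results of these data known. Named were all mitochondrially encoded genes, the most abundant nuclear subunit of each complex, up to 5 nuclear genes per comparison and direction with the smallest p under 0.05, alternative isoforms and, per pathway list, up to 2 genes with the smallest p against GFP. Genes with the most similar pattern across libraries, and some others that this rule took, are not reported. The nuclear copies and Ndufaf6 were named after their values were seen, as was the division by length. Promoter windows come from RefSeq (GRCm38.p6).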

Additional observations from a re-analysis of the deposited data

How the results depend on the processing

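In Olig3 against Olig2 no oxidative phosphorylation gene was called under any alternative run. In the other comparisons the count left 0 under no filter on low counts and with DESeq2. With no filter it was 3 for Olig2 against GFP (mt-Cytb, mt-Co3 and mt-Atp6, edgeR adjusted p = 0.00892, 0.00148 and 0.0344). It was 1 for Olig3 against GFP (mt-Co3, 0.000544). Over all genes, the runs without a filter called 176 and 556 of 29429 in these comparisons. With DESeq2 the count was 1 for Olig3 against GFP (Ndufs7), where 625 of 29057 genes were called. Leaving out each library gave 0 throughout. The replicate numbers did not pair the libraries (correlations of deviations -0.0634 to 0.113), and the fit with the replicate number as a block also called 0.

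With library totals only, the median of the mitochondrially encoded genes in Olig2 against GFP went from 0.80 to 0.42 and that of the nuclear subunits from 0.56 to 0.18. In Olig3 against GFP the nuclear median went from 0.17 to -0.079. Without the 3 Malat1-rich libraries these 3 medians were 0.35, 0.026 and -0.078. Without the 2 libraries with the fewest detected genes, the Olig3 medians were 1.04 and 0.72. Leaving out each library gave -0.066 to 0.35 for the nuclear median of Olig3, the lowest without Olig3 library 2, and 0.014 to 0.87 for the mitochondrially encoded one. The ratio of both classes, Olig2 over GFP, turned from 0.39 to -0.14 as medians of log2 CPM. Of single genes, mt-Co3 in Olig3 against GFP (1.96) had -0.016 without Olig3 library 2, 2.48 without Olig3 library 3 and -0.022 without the Malat1-rich libraries, and Ndufa6 and Cox8a in Olig2 against GFP turned to -0.021 and -0.098 without the latter. The cause was not tested. With 3 libraries a group, the standard errors beside each gene set the size of change that could be called, and genes at or under the floor of 3 counts could not be compared.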
